A study of Mus musculus with 32 samples.

Results

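The 7 genes described here encode the core of MHC class II antigen presentation: the class II chains H2-Aa, H2-Ab1 and H2-Eb1, the invariant chain Cd74, the peptide editors H2-DMa and H2-DMb1, and the transactivator Ciita. They were taken by name, and all 7 were found among the 18588 genes of the deposited table. They were followed in microglia of the rTg4510 tau mouse and its wild type (WT) littermates at 2, 4, 6 and 8 months of age. All animals were female. rTg4510 mice (strain label rTg4510) carry 2 transgenes, human 4-repeat tau with the P301L mutation behind a tetracycline-responsive element and a transactivator driven by CaMKIIα, which directs tau to forebrain neurons. WT mice (strain label 129/FVB F1) carry neither transgene. CD11b-coated magnetic beads were used to collect the cells, and each library came from the pooled forebrains of 8 to 10 animals. Of 32 libraries, 4 per genotype and age, 28 passed the quality control of the study, which left 4, 3, 4 and 3 libraries of each genotype at 2, 4, 6 and 8 months. All values are log2 gene signals on one scale whose median was 5.63 in every library, so a difference of 1 is a doubling of signal.

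MHC class II molecules are dimers of an α and a β chain that display peptides from endosomes to CD4+ T cells. New dimers assemble on the invariant chain, which fills their groove and leads them to late endosomes, where proteases trim it to the fragment CLIP and the H2-DM dimer exchanges CLIP for peptide. Most of these genes share a promoter module read by RFX, CREB and NF-Y with the coactivator CIITA, and resting microglia are known for low class II levels that rise with activation.

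Of the 7 members, 5 lie in the H2 region of chromosome 17, and the promoter module can be read in the sequence before some of them. On GRCm38.p6 (RefSeq), H2-Aa spans chr17:34282744-34287823, H2-Ab1 chr17:34263227-34269418, H2-Eb1 chr17:34305867-34316674, H2-DMa chr17:34119693-34139101 and H2-DMb1 chr17:34153191-34160229. The stretches printed here, from H2-Aa, H2-Eb1 and H2-DMb1, end before the annotated start. The capitals mark GNAAC, the core of the X box that RFX reads, and TGATTGG, the Y box of NF-Y, with the start of GNAAC 25 to 35 bases before that of TGATTGG on the same strand. The H2-Aa stretch is on the minus strand at chr17:34287842-34287929, the H2-Eb1 stretch on the plus strand at chr17:34305751-34305837 and the H2-DMb1 stretch on the plus strand at chr17:34153072-34153159.
H2-Aa: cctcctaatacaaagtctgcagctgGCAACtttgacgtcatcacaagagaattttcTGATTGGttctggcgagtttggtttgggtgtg
H2-Eb1: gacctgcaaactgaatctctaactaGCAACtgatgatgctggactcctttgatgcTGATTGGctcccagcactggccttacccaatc
H2-DMb1: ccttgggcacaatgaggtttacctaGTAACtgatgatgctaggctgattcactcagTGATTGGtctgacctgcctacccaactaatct
The distance between the starts of both motifs was 31 bases in H2-Aa and H2-DMb1 and 30 in H2-Eb1. Among 32851 RefSeq promoters of 250 bases, searched on both strands, 7.23% held TGATTGG and 0.271% held the spaced pair. The pair was also found before H2-Oa, H2-Ob and H2-Eb2, TGATTGG alone before H2-DMb2, and neither in the 2 promoters listed for H2-DMa. Those 2 promoters began at chr17:34122582 and chr17:34125268, inside the long span annotated for H2-DMa. Sequence before any other start in that span was not searched, so the module may have been missed for this gene. Genes with the pair did not all vary together from library to library. With the mean deviation of the chains and Cd74, described below, r was 0.0989 for H2-Oa, 0.112 for H2-Ob and 0.683 for H2-Eb2. Of the 7 members, H2-Ab1, Cd74 and Ciita had no promoter entry in the table searched, nor had H2-Ea. These are matches of letters in 1 window, not measured binding.

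Before the comparisons, the libraries were checked for what else a CD11b selection could hold. All 10 microglia markers were present in every library, with the lowest signals 5.85 for Aif1 and 8.11 for Fcrls, and the defining genes P2ry12 and Tmem119 at 10.06 to 11.06 and 10.62 to 11.92. Markers of border-associated macrophages, which express class II at rest, were present too, from 3.96 for Clec4n to 10.11 for Mrc1, and 1 to 3 of 10 dendritic cell markers were called lower in rTg4510 at each age. The number of cells of a type and the RNA per cell cannot be told apart in these pools. Library 2 of WT at 8 months stood apart: it held the highest value of its group for 7 of 7 members, and the highest summed signal of the border macrophage list (2875) and of the dendritic cell list (714) among all 28 libraries. Library 2 of WT at 6 months held the lowest value of its group for 7 of 7 members and the lowest border macrophage sum of its group (1616). Library 2 of WT at 4 months also held the lowest value of its group for 7 of 7 members. Its border macrophage sum (1918), however, lay above that of library 4 (1625), the lowest of that group. The tau transgene is human, so mouse Mapt does not check the genotype labels. Its signal ran from 4.14 to 6.77 in WT and from 3.51 to 5.41 in rTg4510, and was called lower in rTg4510 averaged over ages (−0.60, FDR 0.0357) though at no single age. Prnp, looked at beside it, was called higher on that average (0.71, FDR 0.00518) and at 6 months (1.19, FDR 0.014), but at no other single age. Its highest signal, 9.76, was in library 1 of WT at 8 months.

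H2-DMa was higher in rTg4510 microglia than in WT at every age, by 1.63 to 1.93 fold, and was already so at 2 months. H2-DMb1, its partner chain, was higher at every age by a smaller amount, 1.2 to 1.45 fold. Cd74 was 1.63 fold higher at 8 months, whereas H2-Aa, H2-Ab1, H2-Eb1 and Ciita did not pass the FDR at any age. A gene was called when its false discovery rate (FDR, limma, Benjamini-Hochberg over 18588 genes) was under 0.05 and its change above 1.5 fold. By that rule H2-DMb1, below 1.5 fold, was not called at any age either. In all 1 of 7 members was called higher at 2 months, where 1.58% of all genes were, 1 at 4 months (9.47% of genes), 1 at 6 months (11.3%) and 2 at 8 months (10.5%). None of the 7 was called lower at 2, 4, 6 or 8 months, where 0.403%, 4.33%, 8.54% and 5.37% of genes were, and the 2, 2, 3 and 4 members with an unadjusted p under 0.05 in limma, where 16.5%, 33.6%, 43% and 35.4% of all genes had one, were all higher in rTg4510. Averaged over the 4 ages, 1 member was called higher (9.51% of genes) and 0 lower (7.03%), with 3 members at an unadjusted p under 0.05 in limma, all higher, against 53.2% of all genes in either direction.

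**Figure D1:**
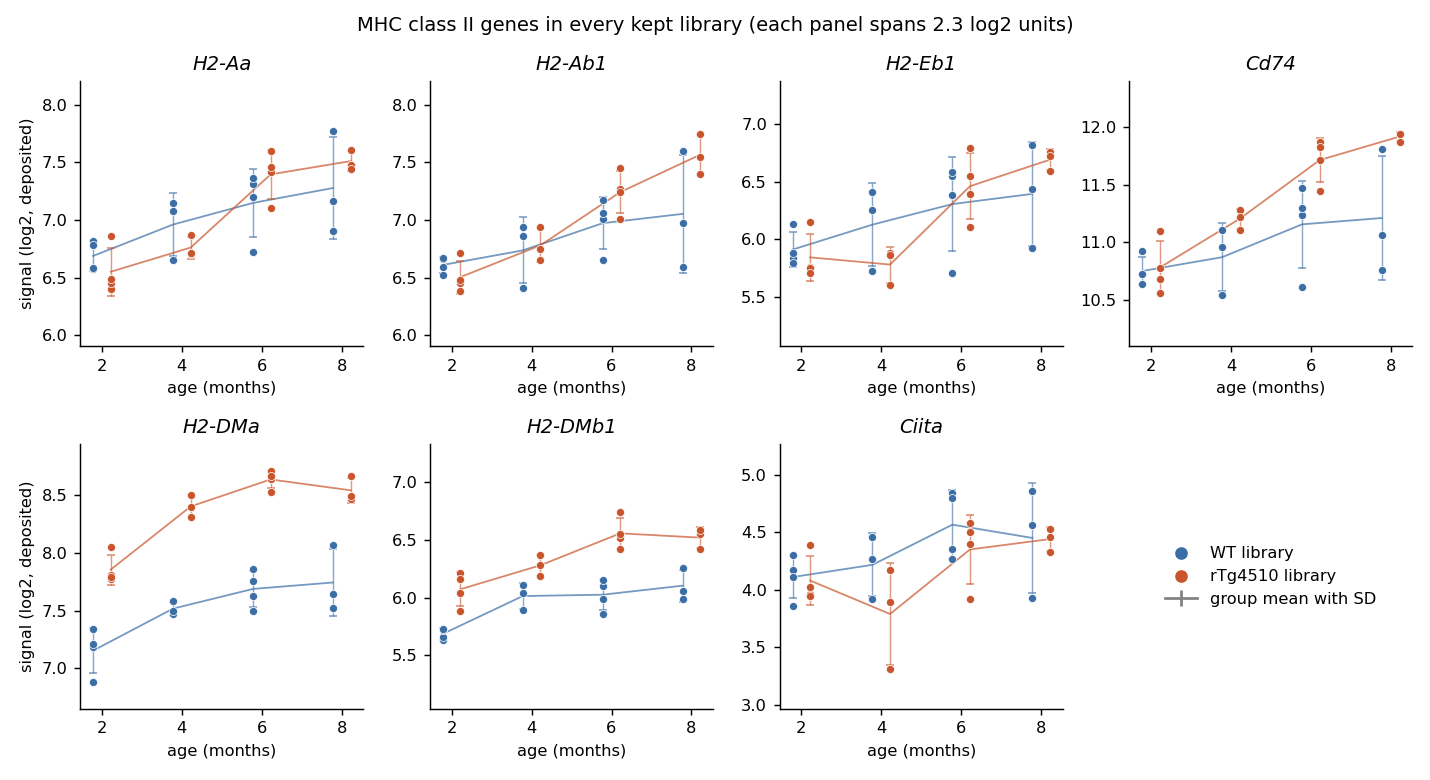
Signal (log2, y axis) of each MHC class II member against age in months (x axis), with WT libraries in blue, rTg4510 libraries in orange, lines through the group means and bars for the SD. H2-DMa and H2-DMb1 of every rTg4510 library lay above every WT library of that age, whereas the genotypes overlapped in H2-Aa, H2-Ab1, H2-Eb1 and Ciita.

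The α and β chains themselves are the surface molecule. For H2-Aa, the α chain of I-A, the WT libraries at 2 months had signals of 6.82, 6.78, 6.57 and 6.58 and the rTg4510 libraries 6.86, 6.40, 6.45 and 6.49. At 4 months WT had 7.15, 6.65 and 7.08 and rTg4510 6.87, 6.70 and 6.71. The genotypes overlapped at both ages. At 6 months WT had 7.31, 6.72, 7.36 and 7.20 and rTg4510 7.60, 7.42, 7.46 and 7.10, and at 8 months WT had 7.16, 7.77 and 6.90 and rTg4510 7.48, 7.44 and 7.61. The overlap held at these ages as well, and at 8 months the highest and the lowest library were both WT. The log2 fold change of H2-Aa was −0.14, −0.20, 0.25 and 0.23 with age, with FDR values of 0.791, 0.517, 0.274 and 0.427, and its 95% interval at 8 months ran from −0.18 to 0.64.

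H2-Ab1, the β chain of I-A, spanned 6.38 to 7.75 over the 28 libraries. Its rTg4510 mean moved from 6.50 ± 0.144 (SD, n = 4) at 2 months to 7.57 ± 0.176 (n = 3) at 8 months, and its WT mean from 6.61 ± 0.0729 (n = 4) to 7.05 ± 0.509 (n = 3). At 8 months the WT libraries had 6.97, 7.60 and 6.59 and the rTg4510 libraries 7.40, 7.55 and 7.75, which overlapped through the WT library at 7.60. The log2 fold change at 8 months was 0.52 (SE 0.193, 95% interval 0.12 to 0.92, limma FDR 0.0541), short of a call. Without that WT library it was 0.79 at an FDR of 0.00162, and so was called. Before 8 months the fold changes were −0.11, 0.05 and 0.27 on the log2 scale, with FDR values of 0.85, 0.902 and 0.232.

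H2-Eb1, the β chain of I-E, spanned 5.60 to 6.82 and its genotypes overlapped at each age. Its log2 fold changes were −0.07, −0.35, 0.16 and 0.30, with FDR values of 0.93, 0.327, 0.591 and 0.397. Its α partner is H2-Ea, of which some inbred strains carry a silent allele. The allele of these mice was not examined, so signal at H2-Ea does not show that I-E was made. H2-Ea spanned 5.39 to 7.40, and was the only class II gene measured whose rTg4510 libraries all lay below the WT libraries at any age. That was at 4 months, where WT had 6.49, 6.13 and 6.66 and rTg4510 5.80, 5.76 and 5.52, with a log2 fold change of −0.73 (FDR 0.0794, not called). At 2, 6 and 8 months the log2 fold change of H2-Ea was −0.15, 0.20 and 0.10, with FDR values of 0.861, 0.575 and 0.844.

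Cd74, the invariant chain (chr18:60803849-60812652), was among the most abundant transcripts, at the 98.2th percentile of mean signal. At 2 months WT libraries had 10.64, 10.92, 10.72 and 10.72 and rTg4510 libraries 11.10, 10.68, 10.78 and 10.56, and at 4 months WT had 10.96, 10.54 and 11.11 and rTg4510 11.28, 11.22 and 11.11. At 6 months WT had 11.24, 10.61, 11.47 and 11.30 and rTg4510 11.87, 11.71, 11.83 and 11.44. Most rTg4510 libraries lay above WT at 6 months, but the lowest of them fell inside the WT range. At 8 months WT had 11.06, 11.81 and 10.76 and rTg4510 11.87, 11.94 and 11.94. Here the genotypes no longer overlapped, and the SD was 0.0374 among the rTg4510 libraries and 0.54 among the WT libraries. The log2 fold change was 0.03 (FDR 0.972), 0.33 (0.329), 0.56 (0.0315, 1.47 fold and so not called) and 0.71 at 8 months (SE 0.225, 95% interval 0.24 to 1.17, FDR 0.0241, called). Whether that difference between ages is itself larger than the spread was tested as the change of the genotype effect from 2 to 8 months, which was 0.68 (95% interval 0.05 to 1.30) at an FDR of 0.188. Without library 2 of WT at 8 months the value of that age was 1.01, and without library 2 of WT at 6 months that of 6 months was 0.38 at an FDR of 0.138. At 6 months Cd74 became called without library 1, 3 or 4 of WT (0.59, 0.66 and 0.61) or library 4 of rTg4510 (0.65). The call at 8 months was lost after quantile normalization (0.24, FDR 0.462), where the values at 2 and 4 months turned to −0.15 and −0.06. Over the 930 genes in the top 5% of mean signal, the median difference between genotypes was 0.23 at 8 months against −0.01 over all genes, and its part in the Cd74 value was not tested. The call was also lost with all 32 libraries (0.62, FDR 0.0715), in a fit of the 8 month groups alone (0.71, FDR 0.246), and without library 1 or 3 of WT (0.63 and 0.48) or library 2 or 3 of rTg4510 (0.69 and 0.70) at that age. The microRNA gene Mir5107 lies inside Cd74 and is listed on its own, and reads from either cannot be told apart here. Its log2 fold changes were 0.20, 0.14, 0.32 and 0.43, with FDR values from 0.299 to 0.782.

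Of the 7 members H2-DMa had the largest fold change at each age. H2-DMa, the α chain of H2-DM, had signals of 6.88, 7.18, 7.21 and 7.34 in WT and 7.81, 7.77, 8.05 and 7.79 in rTg4510 at 2 months. At 4 months WT had 7.58, 7.47 and 7.50 and rTg4510 8.40, 8.31 and 8.50. Each rTg4510 library was above each WT library at both ages. At 6 months WT had 7.63, 7.50, 7.76 and 7.86 and rTg4510 8.53, 8.64, 8.71 and 8.67, and at 8 months WT had 7.64, 8.07 and 7.52 and rTg4510 8.47, 8.67 and 8.49. The separation was again complete, including the WT library at 8.07. The log2 fold change was 0.70 (SE 0.108, FDR 0.000301), 0.89 (SE 0.125, 1.45e-05), 0.95 (SE 0.108, 4.71e-07) and 0.80 (SE 0.125, 4.29e-05), and averaged over ages 0.83 (95% interval 0.71 to 0.96, FDR 1.33e-10). Leaving out any of the 28 libraries kept H2-DMa called at each age, and so did quantile normalization (0.68, 0.79, 0.83 and 0.69), whereas a fit of the 8 month groups alone gave an FDR of 0.0691. H2-DMa overlaps Brd2 in the annotation, and Brd2 differed by only 0.12, −0.08, 0.20 and 0.18 with FDR values of 0.569, 0.641, 0.0897 and 0.227. Whether counting used strand is not stated.

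H2-DMb1, the β chain of H2-DM, had 5.63, 5.66, 5.72 and 5.73 in WT and 6.21, 5.88, 6.16 and 6.04 in rTg4510 at 2 months, and 6.11, 5.89 and 6.04 in WT and 6.37, 6.19 and 6.28 in rTg4510 at 4 months. At 6 months WT had 6.10, 5.86, 6.15 and 5.99 and rTg4510 6.52, 6.55, 6.74 and 6.42, and at 8 months WT had 5.99, 6.26 and 6.06 and rTg4510 6.42, 6.55 and 6.59. As with its partner, all rTg4510 libraries lay above all WT libraries at each age. The log2 fold changes were 0.39, 0.27, 0.53 and 0.42 (SE 0.0826 to 0.0954), with FDR values of 0.00506, 0.0482, 2.82e-05 and 0.00211, so the FDR passed 0.05 at every age while the change stayed below 1.5 fold. With all 32 libraries, those FDR values became 0.865, 0.513, 0.138 and 0.515 at changes of 0.39, 0.24, 0.53 and 0.28. The 4 libraries set aside by the study had H2-DMb1 signals of 5.11 to 5.51, below every kept library. In a fit of only the groups compared the FDR values of H2-DMb1 were 0.0717, 0.141, 0.00817 and 0.0725, so that 3 of the 4 ages no longer passed. The FDR at 4 months also moved to 0.0624 with moderated variances, and reached 0.197 with 1 library left out. H2-DMb2, a near-identical copy next to H2-DMb1, differed by 0.41, 0.48, 0.49 and 0.52 (FDR 0.0522, 0.0178, 0.00365 and 0.0089). How reads shared by both copies were counted is not stated, so the values of each copy are uncertain.

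Counted over the members, every rTg4510 library lay above every WT library for 2 of 7 at 2 months (7.49% of all genes), 2 at 4 months (19.1%), 2 at 6 months (18.2%) and 3 at 8 months (21.2%), namely H2-DMa and H2-DMb1 with Cd74 added at 8 months. For 0 of 7 did every rTg4510 library lie below WT, against 3.51%, 17.5%, 14.6% and 15.5% of genes.

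Ciita, the coactivator on which class II transcription depends (chr16:10480014-10531064), was the least abundant member, at the 19.2th percentile and at least 1.96 above the lowest value of its library. At 2 months WT libraries had 4.17, 4.11, 4.30 and 3.86 and rTg4510 libraries 4.39, 3.96, 4.02 and 3.95, and at 4 months WT had 4.27, 3.92 and 4.46 and rTg4510 4.17, 3.31 and 3.89. At 6 months WT had 4.35, 4.27, 4.84 and 4.80 and rTg4510 4.58, 4.50, 4.40 and 3.92, and at 8 months WT had 4.56, 4.86 and 3.93 and rTg4510 4.33, 4.46 and 4.53. The genotypes overlapped at all 4 ages. The log2 fold changes were −0.03, −0.43, −0.21 and −0.01 with FDR values of 0.979, 0.234, 0.468 and 0.976, and the 95% interval at 8 months ran from −0.52 to 0.49. Ciita overlaps Dexi in the annotation, which differed by −0.32, −0.23, −0.41 and −0.45 (FDR 0.389, 0.451, 0.0752 and 0.106).

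**Figure D2:**
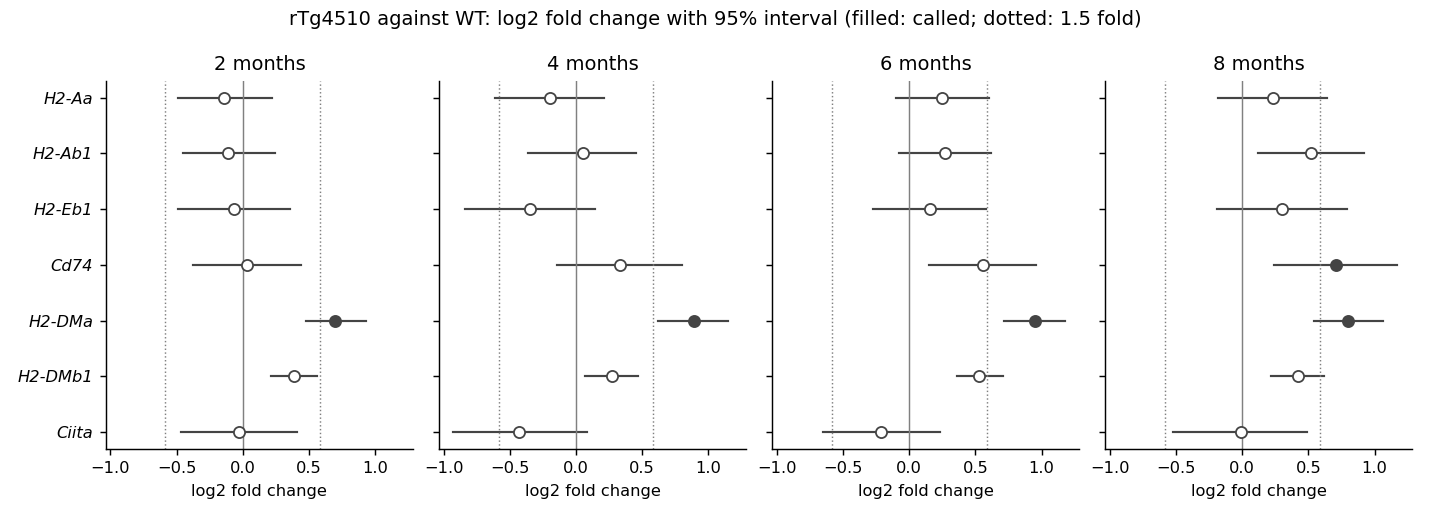
Log2 fold change of rTg4510 against WT (x axis) for the 7 members (y axis) at each age, with 95% intervals, filled points for called members and dotted lines at 1.5 fold. H2-DMa was called at all 4 ages and Cd74 at 8 months, and the interval of H2-DMb1 lay above 0 at each age.

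No change of the genotype effect between ages was called for any of the 7 members. From 2 to 4 months 0 members were called (3.77% of genes higher, 0.893% lower), from 4 to 6 months 0 (0.0377% and 0.118%), from 6 to 8 months 0 (0% and 0%) and from 2 to 8 months 0 (4.85% and 1.85%). In limma 0, 1, 0 and 2 of the 7 had an unadjusted p under 0.05, against 19.6%, 8.15%, 4.52% and 21.1% of all genes, and moderated variances gave 0 calls in each as well. The change from 2 to 8 months was 0.10 (95% interval −0.25 to 0.44) for H2-DMa and 0.03 (−0.23 to 0.30) for H2-DMb1. For H2-Ab1 it was 0.62 (0.09 to 1.16, FDR 0.147), and for Cd74 and H2-Ab1 it reached 0.98 (FDR 0.0204) and 0.90 (FDR 0.0101), both called, without library 2 of WT at 8 months, the library with the highest border macrophage sum.

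The members were also followed with age within each genotype. From 2 to 8 months, 5 of 7 were called higher in rTg4510 microglia (5.72% of genes) and 0 lower (4.78%): Cd74 by 1.14 (FDR 0.000418), H2-Ab1 by 1.07 (0.000169), H2-Aa by 0.96 (0.000585), H2-Eb1 by 0.85 (0.00773) and H2-DMa by 0.69 (0.00018) on the log2 scale. H2-DMb1 differed by 0.45 at an FDR of 0.000856, below 1.5 fold, and Ciita by 0.36 (FDR 0.306). In WT over the same span 1 of 7 was called higher (0.533% of genes) and 0 lower (0.737%), which was H2-DMa at 0.59 (FDR 0.00789), just over 1.5 fold. In WT H2-DMb1 differed by 0.41 (FDR 0.0127, below 1.5 fold), and H2-Aa, H2-Ab1, H2-Eb1 and Cd74 by 0.59, 0.44, 0.48 and 0.46 with FDR values of 0.0737, 0.178, 0.235 and 0.231. Of the 7, 6 had an unadjusted p under 0.05 in WT (19.2% of all genes) and 6 in rTg4510 (32.2%). These 2 counts do not show that age acted differently in the genotypes, since the test of that difference, given above, called 0 members. The count in WT also turned on single libraries, at 0 without library 1 of WT at 2 months or library 2 at 8 months and at 3 without library 3 at 8 months, while in rTg4510 it stayed at 5 without any 1 of the 28 libraries.

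For 6 of the 7 members, all but H2-DMa, the step from 4 to 6 months was the largest of the 3 in rTg4510. In that step H2-Eb1 differed by 0.68, H2-Aa by 0.64, Ciita by 0.56, Cd74 by 0.51, H2-Ab1 by 0.46 and H2-DMb1 by 0.28. None of the 7 passed the FDR (0 called, with 0.312% of genes called higher and 0.506% lower), although 6 had an unadjusted p under 0.05 in limma (14% of all genes). In WT the step from 4 to 6 months was also the largest for H2-Ab1 (0.24), Cd74 (0.28) and Ciita (0.35). For the other members the largest WT step was from 2 to 4 months. The genotype effect at 6 against 4 months, given above, was called for 0 members, so this timing was not shown to be particular to rTg4510. In the same rTg4510 groups the median summed signal was 388, 340, 519 and 502 for the dendritic cell list and 332, 252, 409 and 470 for the monocyte list at 2, 4, 6 and 8 months, and the part of these cells in the step was not tested. H2-DMa took an earlier course, with 0.55 from 2 to 4 months (FDR 0.0027, below 1.5 fold), 0.24 from 4 to 6 and −0.09 from 6 to 8 months. Ordered by group mean, the chains and Cd74 were highest in rTg4510 at 8 months and next highest in rTg4510 at 6 months. H2-DMa was lowest in the 4 WT groups, and its WT mean at 8 months, 7.75, lay below the rTg4510 mean at 2 months, 7.85, a gap smaller than the spread of the WT libraries (SD 0.29).

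The members were also compared within libraries, as the log2 difference between a member and H2-Aa of the same library. The 4 differences were chosen after seeing the data, when H2-DMa was known to differ between genotypes and H2-Aa was not. The relabelings were free within an age, so a pairing of libraries by replicate number was not kept. H2-DMa stood 0.80 higher relative to H2-Aa in rTg4510 than in WT, averaged over ages (two-sided exact permutation test within ages over 1960000 relabelings, p = 1.02e-06, the smallest it can give, adjusted p = 4.08e-06 over 4 differences). By age the WT libraries lay between 0.06 and 0.76 at 2 months, 0.42 and 0.81 at 4, 0.31 and 0.79 at 6, and 0.30 and 0.62 at 8 months. The rTg4510 libraries lay between 0.95 and 1.59, 1.52 and 1.79, 0.93 and 1.56, and 0.89 and 1.23, above all WT libraries of their age. At a single age the smallest exact p is 0.0286 with 4 against 4 libraries and 0.1 with 3 against 3, and both were reached.

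H2-DMb1 relative to H2-Aa was 0.36 higher in rTg4510 (exact permutation p = 7.24e-05, adjusted 9.66e-05). Its difference by age was 0.52, 0.47, 0.28 and 0.19, with overlap at 6 and 8 months. Cd74 relative to H2-Aa was 0.37 higher (exact permutation p = 4.08e-06, adjusted 8.16e-06), with complete separation at 4, 6 and 8 months, where WT libraries lay between 3.81 and 4.11 and rTg4510 libraries between 4.27 and 4.52. This call did not survive quantile normalization, which left 0.04 (exact permutation p = 0.393), whereas H2-DMa kept 0.75 and H2-DMb1 0.41. Ciita relative to H2-Aa was 0.21 lower (difference −0.21, exact permutation p = 0.0189, adjusted 0.0189), and −0.11 (p = 0.164 by the same exact test) after quantile normalization. It was lower at 4, 6 and 8 months (−0.23, −0.46 and −0.25) and 0.11 higher at 2 months.

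**Figure D3:**
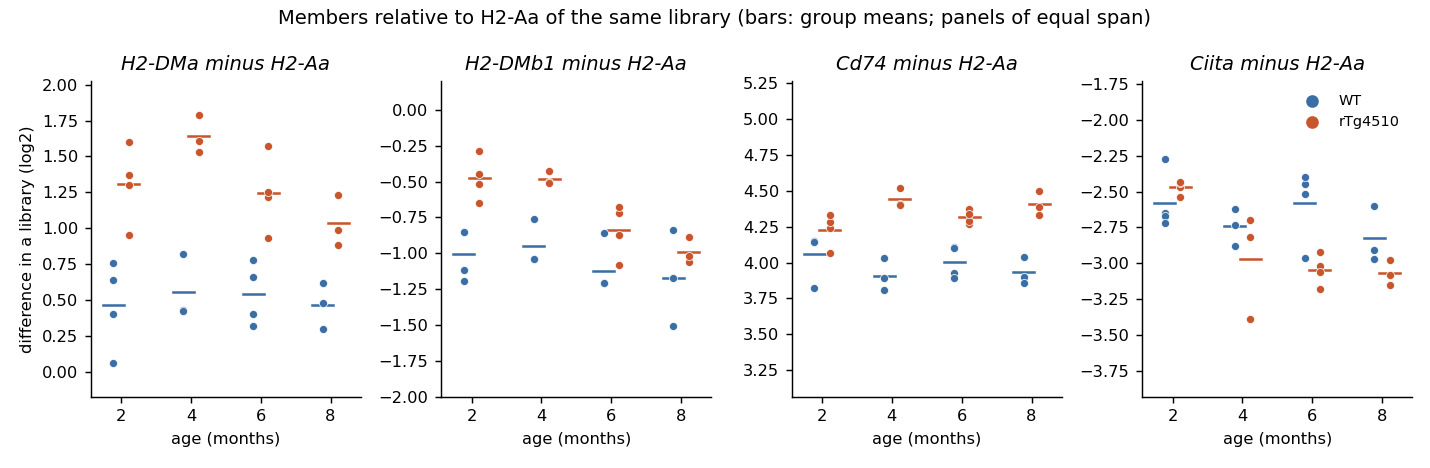
Log2 difference between H2-DMa, H2-DMb1, Cd74 or Ciita and H2-Aa of the same library (y axis) against age in months (x axis), WT in blue and rTg4510 in orange, with bars at the group means. H2-DMa relative to H2-Aa lay at 0.06 to 0.81 in WT and 0.89 to 1.79 in rTg4510.

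How the members vary together was read from the replicate libraries of a group. After the group mean was subtracted from each of the 28 libraries, 17 of the 21 pairs of members were correlated by Pearson's r and 16 by Spearman's rho (permutation test within groups, 100000 permutations, Benjamini-Hochberg adjusted over 21 pairs). Among H2-Aa, H2-Ab1, H2-Eb1 and Cd74, Pearson's r was 0.871 to 0.944 and Spearman's rho 0.82 to 0.915 (adjusted p = 0.000723 or less by the permutation test for r), and r was 0.798 to 0.922 without the 2 libraries farthest from the median. Ciita followed the same 4 genes with r of 0.668 to 0.803 and rho of 0.629 to 0.792 (adjusted permutation p of 0.00436 or less), and 0.576 to 0.742 without the 2 farthest. Ciita thus varied with these genes from library to library, although no difference between the genotypes was called for it. Markers of other cells, myeloid and not, moved with the chains too, as given below, and the cause of the relation was not tested.

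H2-DMa behaved otherwise. With H2-Aa, H2-Ab1 and H2-Eb1 its r was 0.361, 0.443 and 0.297 and its rho 0.177, 0.228 and 0.147 (adjusted permutation p = 0.251, 0.168 and 0.292), and without the 2 farthest libraries r was 0.0499, 0.087 and 0.0473. With Cd74 it was 0.577 (adjusted permutation p = 0.0346) with a rho of 0.454 (adjusted permutation p = 0.0573), so the pair passed by r and not by rank. The r fell to 0.358 without the 2 farthest libraries and so rested in part on them. H2-DMb1 lay between, with r of 0.615 to 0.692 to the 3 chains (rho 0.592 to 0.656) and 0.549 to H2-DMa (rho 0.609, adjusted permutation p = 0.0107). No p of the difference between these correlations was computed. The labels give no batch, so the relation could not be repeated within batches.

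**Figure D4:**
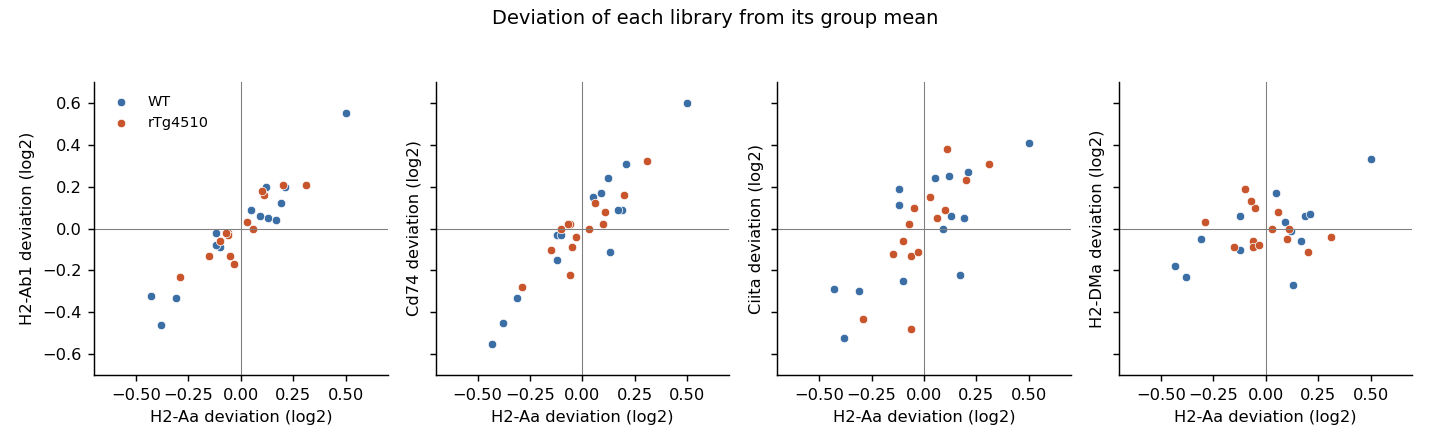
Deviation of each of the 28 libraries from its group mean (log2), for H2-Aa on the x axis and H2-Ab1, Cd74, Ciita or H2-DMa on the y axis, WT in blue and rTg4510 in orange. Points follow the diagonal for H2-Ab1 (r = 0.944) and Cd74 (0.924), less so for Ciita (0.751), and scatter for H2-DMa (0.361).

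Of the other 18581 genes, 23 (0.124%) had an r above 0.8 with the mean deviation of the 3 chains and Cd74, over the same 28 libraries. The 10 most alike were H2-Ea (0.886), Mir5107 (0.878), Adgre5 (0.873), Gpr65 (0.859), Gm5123 (0.859), Fxyd5 (0.858), Hmox1 (0.855), Iqgap1 (0.854), Cd44 (0.838) and Ifi207 (0.832). H2-Ea is the fourth chain gene and Mir5107 lies within Cd74, while Adgre5, Gpr65 and Cd44 encode surface receptors of leukocytes and Hmox1 the haem-degrading enzyme. Gpr65 and Fxyd5 differed between genotypes where the chains did not, by 2.19, 2.20 and 2.19 and by 1.36, 1.34 and 1.48 at 4, 6 and 8 months (FDR 2.31e-06 or less). Of the other 8, Cd44 (1.22 and 1.38), Hmox1 (0.67 and 0.85) and Iqgap1 (0.67 and 0.64) were called higher at 6 and 8 months, and Adgre5 was called lower at 4 months (−0.74, FDR 0.00493). Mir5107 and Gm5123 fell to 0.32 and 0.556 over all 32 libraries.

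Markers of border macrophages and of some other cells, not only myeloid ones, moved with the chains as well. All 10 border macrophage markers had a positive r with the mean deviation of the chains and Cd74, from 0.404 for Cd209f to 0.746 for Cd163 (median 0.633), and 0.0587 to 0.684 (median 0.338) without the 2 farthest libraries. Dendritic cell markers were positive in 9 of 10 (median 0.372, and 0.319 without those 2), monocyte markers in 9 of 10 (0.272 and 0.351) and neutrophil markers in 7 of 10 (0.164 and 0.406), so that of these 4 lists border macrophages had the highest median with the 2 libraries and not without them. Outside these lists, oligodendrocyte markers were positive in 6 of 6 (0.159 and 0.301), T cell markers in 4 of 5 (0.27 and −0.0179) and B cell markers in 4 of 8 (−0.00325 and 0.0709). Endothelial markers were positive in 3 of 6 and astrocyte markers in 0 of 6. An r of 0.17, that of the neutrophil marker Ngp, ranked 4830 among 18581 genes, so a small positive r was common. By contrast, microglia markers were negative in 10 of 10 (median −0.441, and −0.475 without the 2). These points share libraries and are a description. Between genotypes the summed signal of the border macrophage list had medians of 2075, 1918, 2218 and 1891 in WT and 1705, 1547, 1674 and 1826 in rTg4510, and 0 of 10 were called higher at any age, with 0 of 10 higher at an unadjusted p under 0.05 in limma. Called lower were 0, 0, 2 and 1 of 10 (Lyve1 and Cd209f at 6 months, Folr2 at 8 months). The dendritic sum lay lower in every rTg4510 library at 2 months (355 to 402 against 448 to 493 in WT) and 4 months (319 to 371 against 456 to 554), and overlapped at 6 months (374 to 568 against 509 to 610) and 8 months (438 to 563 against 464 to 714), with 0 called higher (0, 0, 0 and 2 at an unadjusted p under 0.05 in limma) and 1, 3, 1 and 2 of 10 lower, Itgae among them at each age. The B cell list ranged over 5560 to 8113 in WT and 5363 to 9374 in rTg4510, with 0, 2, 2 and 1 of 8 called lower and 0 higher (1, 1, 0 and 0 at an unadjusted p under 0.05 in limma). Its sum lay higher in every rTg4510 library at 2 months (8690 to 9374 against 7346 to 8113 in WT) and overlapped at the other ages. Within the list at 2 months, Ighm differed by 0.42 (FDR 0.00251) and Ighd by −0.50 (FDR 0.0419), both below 1.5 fold. In the monocyte list 0, 1, 5 and 0 of 10 were lower and 0, 0, 2 and 1 higher, and in the microglia list 1, 2, 3 and 3 of 10 lower and 0 higher (0, 1, 2 and 1 at an unadjusted p under 0.05 in limma). The part of these cells in the class II values was not tested.

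The other genes of the pathway were counted by role, among the same percentages of all genes called as given above. Of the 5 other class II genes, 0 were called at any age, although 2, 3, 2 and 2 were higher at an unadjusted p under 0.05 in limma. H2-Ob, a chain of the H2-DO dimer that restrains H2-DM, had 5.37, 5.32, 5.30 and 5.46 in WT and 5.73, 5.77, 5.76 and 5.78 in rTg4510 at 2 months, and its rTg4510 libraries lay above WT at all ages. Its log2 fold change was 0.40 (FDR 9.09e-05), 0.55 (6.64e-07), 0.58 (1.71e-08) and 0.35 (0.000157), below 1.5 fold, although H2-Ob at 6 months passed 1.5 fold without library 1 or 4 of WT or library 1 or 2 of rTg4510. Its partner H2-Oa differed by 0.19, 0.35, 0.07 and −0.11 (FDR 0.356, 0.0278, 0.64 and 0.51). H2-Eb2 differed by −0.31, 0.09, 0.11 and 0.11 with FDR values of 0.739 to 0.902.

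The regulators came next. Of 10 genes of the enhanceosome and its partners, 0 were called at any age in limma, with 0, 4, 5 and 4 lower and 0 higher at an unadjusted p under 0.05. Rfx5, which binds the X box, differed by −0.23, −0.36, −0.44 and −0.31 (FDR 0.48, 0.132, 0.0235 and 0.198). Of 9 genes between interferon-γ and Ciita, the receptor chain Ifngr1 was lower at 4 and 8 months (−0.63 and −0.62, FDR 2.13e-06 and 1.79e-06). The transcription factor Irf8 was higher at 6 months (0.61, FDR 9.47e-05), and Irf1 at 8 months (0.82, FDR 1.22e-05), where the rTg4510 libraries had 6.08, 6.08 and 5.79 and the WT libraries 5.12, 5.41 and 4.97. The call of Irf1 was lost in a fit of the 8 month groups alone, that of Irf8 after quantile normalization or without library 1 of WT or 3 of rTg4510, and those of Ifngr1 without library 1 of WT at 4 months and without library 3 of WT or 2 of rTg4510 at 8 months.

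Of the 7 genes of the lysosomal list 1, 5, 5 and 5 were called higher at 2, 4, 6 and 8 months and 0 lower, with Ctsl called at 2 months and the 5 being the cathepsins Ctss, Ctsl, Ctsb and Ctsd and the thiol reductase Ifi30. Ctss, which trims the invariant chain in antigen-presenting cells, differed by 0.42, 0.66, 0.81 and 0.73 (FDR 4.5e-05 or less), and Ctsl by 0.67, 1.47, 1.78 and 1.61. Ifi30, which opens disulfide bonds of antigens, differed by 0.38, 0.73, 0.92 and 1.07. The call of Ctsl at 2 months was lost with all 32 libraries and after quantile normalization. The protease Lgmn and the inhibitor Cst3 differed by no more than 0.12 in size at any age. The median log2 fold change of the list was 0.38, 0.73, 0.92 and 1.03, that of the 7 members −0.03, 0.05, 0.27 and 0.42, and that of all genes 0.01, −0.04, −0.03 and −0.01.

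At the cell surface, Cd83, which keeps class II from being degraded, was higher by 1.72, 2.36, 2.98 and 2.76 (FDR 0.000258 or less), with 9.79, 8.92, 8.57 and 9.02 in WT and 11.17, 10.60, 10.82 and 10.60 in rTg4510 at 2 months. Marchf8, a ubiquitin ligase that removes class II, was higher by 0.59, 0.64 and 0.62 from 4 months on, whereas Marchf1, its relative in antigen-presenting cells, differed by −0.39, −0.31 and −0.31 (FDR 0.00232, 0.00311 and 0.0113), below 1.5 fold. These made 1, 2, 2 and 2 of 6 turnover genes called higher and 0 lower. Of 7 genes of T cell contact, 1, 2, 2 and 3 were higher and 0 lower. They were the inhibitory ligands Cd274 (0.75, 2.02, 1.67 and 1.96, FDR 0.00197 or less) and Pdcd1lg2 (1.95, 3.17 and 3.09 from 4 months on) and the adhesion molecule Icam1 at 8 months (0.66, FDR 0.00127). Among these calls, Marchf8 lost its own at 4 and 8 months with all 32 libraries or a pseudocount of 4 and at each age without certain single libraries. Pdcd1lg2 at 4 months and Icam1 at 8 months lost theirs in a fit of only the groups compared, Pdcd1lg2 also without library 1 or 2 of WT or 4 of rTg4510, and Icam1 without library 1 of rTg4510. The activating molecules Cd80, Cd86 and Cd40 were not called at any age, and Cd86 differed by −0.09, 0.10, 0.26 and 0.26 (FDR 0.511, 0.31, 0.00118 and 0.00407).

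**Figure D5:**
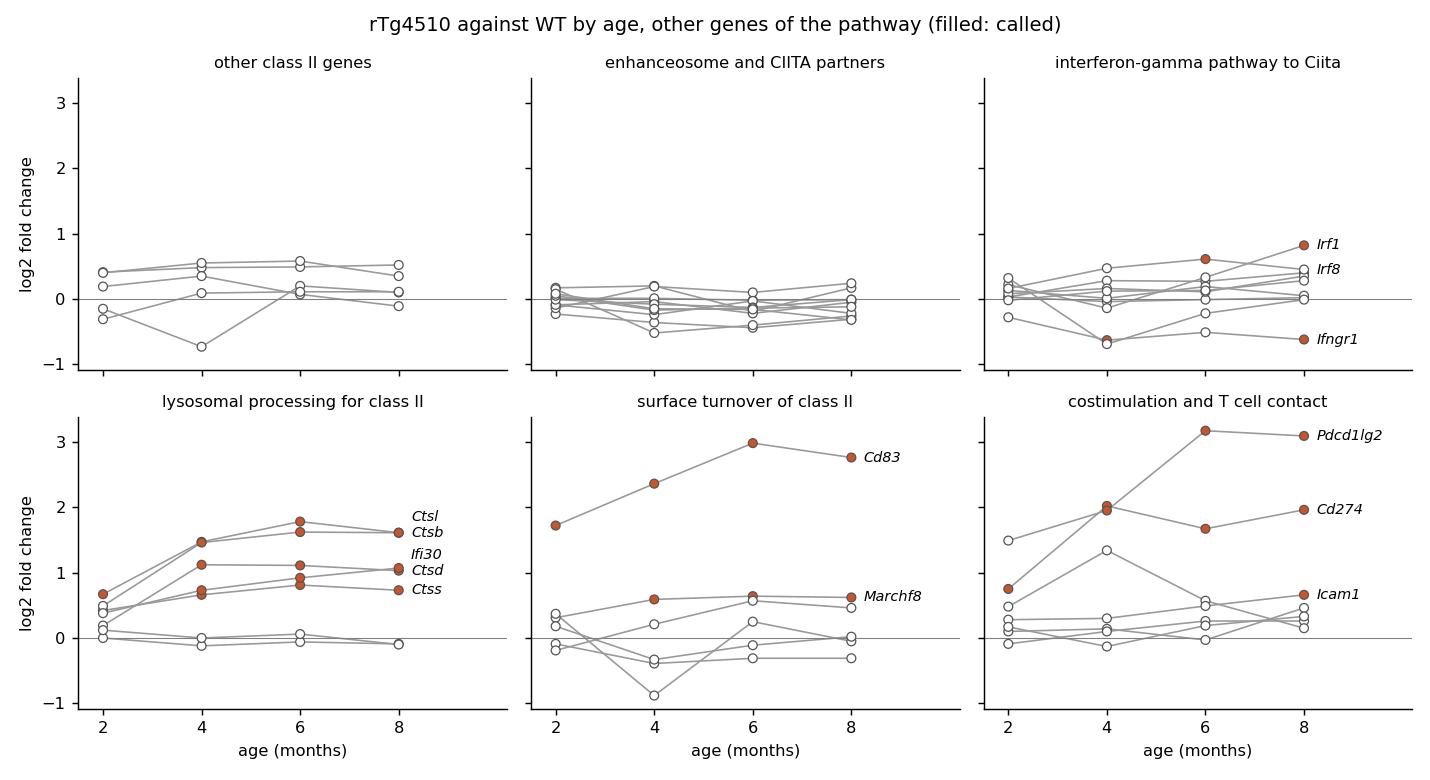
Log2 fold change of rTg4510 against WT (y axis) by age in months (x axis) for the other genes of the pathway, 1 line per gene, filled where the gene was called. Cathepsins, Ifi30, Cd83, Cd274 and Pdcd1lg2 lay between 0.73 and 3.09 at 8 months, whereas 0 of the 5 other class II genes and 0 of the 10 enhanceosome genes were called.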

How the data were processed

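Total RNA of CD11b-selected microglia had been reverse transcribed (Ovation RNA-Seq V2), sequenced and aligned to GRCm38 (the submitters' processing notes); the aligner and annotation are not given in the sources used here. The deposited values are log2 gene signals. To make them, the authors added up the exon reads of all runs, dropped an exon if over 80% of samples had under 10 counts there, fitted a robust linear model to each gene's exons and set all libraries to the same median. Read totals per library were not used here, so no counting error is given, and 3 or 4 libraries per group limit the precision. Genotype, age and replicate number came from the labels. Libraries are the study's biological replicates, and p-values measure the spread between these pools. Of 18588 Entrez numbers 95.9% were matched to RefSeq symbols (GRCm38.p6), which also gave the promoters.

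Computed here with limma 3.58.1 (R 4.3.3) was a linear model of the 8 group means with unmoderated variances (20 residual degrees of freedom) across all genes, after the design of the study, and 17 contrasts, each Benjamini-Hochberg adjusted over all genes. It was tested on simulated data. With 200 genes changed, 62% to 65% of those changed by 1 log2 unit were called over the 4 ages. In the real data 1121 to 6332 genes passed the FDR at an age, and each member differed between genotypes by less than 1. The simulated rate therefore does not tell how often changes of the members' size are called. The members and gene lists were chosen with earlier results of these data known. Named were the 7 members, the other class II genes, up to 4 called genes per list and the 10 genes most like the chains; others were named after their values were seen. Marker lists for microglia, border macrophages, dendritic cells, B cells and monocytes were summed as linear signal. Alternatives were moderated variances, all 32 libraries, only the groups compared, quantile normalization, a filter at the 25th percentile, a pseudocount of 4, a replicate block, and each library left out. The within-library differences and the alternatives of the pairwise relations were chosen after seeing the data.

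Whether equal replicate numbers pair the libraries was checked by the correlation of deviations across genes between same-numbered libraries of an age, which was 0.131 to 0.153 at 6 months and 0.15 to 0.291 at 8 months, but 0.0649 to 0.167 at 2 and −0.0999 to 0.124 at 4 months. Numbers were taken to pair the libraries at 6 and 8 months only, on these values alone.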

Additional observations from a re-analysis of the deposited data

Results flagged for a closer look

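In 3 of the 48 groups of 4 libraries tested over the 7 members and the 5 other class II genes, 1 library stood apart from the other 3 by Dixon's criterion, which chance alone meets in about 1 of 20 groups. All 3 were in rTg4510 at 2 months. Library 1 was the highest for H2-Eb1, at 6.15 where the others lay between 5.71 and 5.76, and for Ciita, at 4.39 where the others lay between 3.95 and 4.02. The same library was the highest of its group for 6 of the 7 members and for the border macrophage sum (2052). Library 3 was the highest for H2-DMa, at 8.05 where the others lay between 7.77 and 7.81. The call of H2-DMa at 2 months was kept without any 1 library, with a log2 fold change of 0.61 to 0.76.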

How the results depend on the processing

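The number of members called between the genotypes at 8 months was 2, and became 1 with all 32 libraries or quantile normalization and 0 in a fit of only the groups compared. In WT from 2 to 8 months it was 1, and became 0 with only the groups compared or a pseudocount of 4. After quantile normalization Cd74 minus H2-Aa was 0.04 and Ciita minus H2-Aa −0.11, neither past the test. With each library left out, the count was 1 to 2 at 6 months, 1 to 3 at 8 months, 0 to 2 for the genotype effect at 8 against 2 months and 0 to 3 for WT at 8 against 2 months, and stayed at 1, 1, 1 and 5 at 2 months, at 4 months, averaged over ages and in rTg4510 from 2 to 8 months. The number of correlated pairs was 12 with all 32 libraries. With a replicate block, Cd74 at 8 months was 0.71 at an FDR of 0.0473, and the pairing changed no member's call. At 2 and 4 months, where the libraries share only a number, the block added calls of Pdcd1lg2 (at 2 months) and H2-Ea (at 4 months). Of 514 values of single members under the alternatives, 508 stayed on the same side of the threshold, called or not, 6 lost a call and 0 called values reversed, while 5 values called in neither fit changed sign. Of 476 for the other named genes, 462 stayed on their side, 11 lost a call and 3 gained one. The cause was not tested. Ciita has no value under the filter on low values, which removed it. Without read totals per library, the counting error of low genes such as Ciita was not computed.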

Other observations

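The 4 libraries that the study set aside after quality control (library 3 at 4 months and library 4 at 8 months of each genotype) entered no comparison above other than the fits of all 32 libraries. At 4 months the rTg4510 library of these had 6.29 for H2-Aa, 6.03 for H2-Ab1, 5.31 for H2-Eb1 and 10.12 for Cd74, below all kept libraries of its group, while its H2-DMa signal of 8.30 lay at the group's lower edge of 8.31. The WT library at 4 months had 7.60 for H2-DMa. At 8 months the rTg4510 library had 8.48 for H2-DMa and the WT library 8.02, both inside the range of their group. The Ciita signal was 5.12 in WT and 5.09 in rTg4510 at 8 months, above all kept libraries of either genotype.

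The summed signal of 5 T cell markers ranged over 36 to 125, with Cd5 the 1 gene called, higher by 1.63, 1.14 and 1.52 at 4, 6 and 8 months. In the neutrophil list 0, 0, 8 and 6 of 10 were called lower at the 4 ages and 0 higher. Library 1 of WT at 8 months held the highest oligodendrocyte and astrocyte sums of the 28 libraries, 1625 and 2333, against 203 to 400 and 524 to 560 in the other libraries of its group.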
